A study of Mus musculus with 10 samples.

Results

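The T cell receptor variable (V) segments are the germline exons from which the antigen-binding part of each receptor chain is built. The members were every row that the deposited table marks with the biotype TR_V_gene and names Trav, Trbv, Trdv, Trgv or Tcrg-V. This gave 142 of 54987 genes: 108 Trav segments for the alpha chain, 22 Trbv for the beta chain, 5 Trdv for the delta chain, and 7 for the gamma chain, of which 6 are named Tcrg-V and 1 is Trgv2. Among 144 rows with that biotype, 2 carry other names and were left out. At least 1 read was found in 119 members, 23 had none in any library, and 66 (45 Trav, 17 Trbv, 2 gamma and 2 delta) passed the filter on low values.

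RNA came from popliteal nodes, the lymph nodes behind the knee, of male BALB/c mice aged 6 to 8 weeks. All libraries carry the label day 15. Control (libraries 15, 16 and 17) had saline in the right hind paw, and AIA (libraries 5, 10, 31 and 38) had 0.1 ml of complete Freund's adjuvant there, an oil emulsion with killed mycobacteria that causes arthritis. Acu (libraries 4, 6 and 28) were given acupuncture on top of the adjuvant, at ST36 by the series title, and the sham group named in the protocols was not analysed here. Whether every library is a mouse of its own is not stated in the labels, so a p-value speaks for the spread of libraries rather than of mice, and the mice carry no transgene or deletion that the labels name.

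Each developing T cell in the thymus joins 1 V segment to a J segment, with a D segment between them in beta and delta chains, and the joined exon is then spliced to a constant gene. A single T cell therefore transcribes few V segments, and the mixture of V segments in a tissue reflects which receptors its T cells carry. Conventional helper and killer T cells use alpha and beta chains, while gamma delta T cells form a smaller lineage that is common in skin and mucosa. RNA of a whole node cannot tell fewer T cells from less receptor RNA per T cell.

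The segments that carry the largest differences are given by the last 60 bases of their GENCODE M21 transcripts (GRCm38, the assembly also called mm10), written 5′ to 3′ in the sense of the gene. In the segments printed here, the letters TGTGC in capitals hold a TGT codon for the conserved cysteine that opens the hypervariable loop, followed by GC. These letters were searched on the sense strand alone, in any reading frame, and stand in the last 60 bases of 117 of 142 members (82.4%). In Trav9-2, Trav9d-2 and Trav9n-2, which are among the 117, they lie upstream of that cysteine. The absence of capitals says only that these letters are not in that window. The beta chain segments lie on the plus strand, with Trbv1 at chr6:40891229-40891885, Trbv13-1 at chr6:41116007-41116468, Trbv13-2 at chr6:41121396-41121832, Trbv13-3 at chr6:41130147-41130585, Trbv17 at chr6:41163062-41163556 and Trbv20 at chr6:41188273-41188977.
Trbv1: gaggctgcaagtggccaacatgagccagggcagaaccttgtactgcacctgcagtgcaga
Trbv13-1: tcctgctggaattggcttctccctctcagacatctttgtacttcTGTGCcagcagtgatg
Trbv13-2: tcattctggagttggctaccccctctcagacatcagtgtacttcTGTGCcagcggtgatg
Trbv13-3: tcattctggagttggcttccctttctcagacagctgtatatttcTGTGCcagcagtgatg
Trbv17: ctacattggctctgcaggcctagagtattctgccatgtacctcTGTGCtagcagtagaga
Trbv20: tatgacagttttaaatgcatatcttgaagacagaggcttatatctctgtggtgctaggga

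The next set shows the alpha chain segments with the highest level or a marked difference in usage, all on the plus strand of chromosome 14: Trav14d-3-dv8 at chr14:53078452-53079045, Trav7-4 at chr14:53461099-53461738, Trav7d-4 at chr14:52769753-52770392, Trav16d-dv11 at chr14:53047287-53047821 and Trav6-1 at chr14:52638515-52638962. Trav7-4 and Trav7d-4 end in the same 60 bases and differ at 2 of 451 aligned bases of the whole transcript.
Trav14d-3-dv8: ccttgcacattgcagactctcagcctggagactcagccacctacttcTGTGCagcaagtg
Trav7-4: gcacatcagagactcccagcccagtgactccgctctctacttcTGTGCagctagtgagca
Trav7d-4: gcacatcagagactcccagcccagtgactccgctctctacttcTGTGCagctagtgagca
Trav16d-dv11: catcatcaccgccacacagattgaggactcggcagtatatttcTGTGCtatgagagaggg
Trav6-1: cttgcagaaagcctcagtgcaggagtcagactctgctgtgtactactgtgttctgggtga

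The last set shows Trdv4 (chr14:54074905-54075515), which holds most V reads of the libraries labelled Control 17 and Acu 4, Tcrg-V6 (chr13:19190356-19190929), a gamma segment read in the latter alone, and the only members read in AIA 10, Trbv12-2 (chr6:41118851-41119364) and Trav6n-6 (chr14:53132679-53133137). All lie on the plus strand.
Trdv4: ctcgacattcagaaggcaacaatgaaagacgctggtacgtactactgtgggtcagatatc
Tcrg-V6: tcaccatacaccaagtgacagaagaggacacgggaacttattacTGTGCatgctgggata
Trbv12-2: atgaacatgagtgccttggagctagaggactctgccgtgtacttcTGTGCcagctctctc
Trav6n-6: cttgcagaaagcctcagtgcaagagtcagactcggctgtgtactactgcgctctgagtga

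The alpha chain locus is built from repeated copies, and 34 of the 108 Trav members carry d names, 28 carry n names and 46 neither. In all, 36 members, all of them Trav, share every stretch of 50 bases with another V segment. Of these 36, 24 still had reads, which made up 336 of the 7343 member reads (4.58%). All 336 fall among the 2724 Trav reads, so their share of alpha reads is larger. The sources used here do not say how reads were shared among such copies. Among 20 pairs whose aligned transcripts are identical, 9 had reads in both copies, 9 in 1 copy alone and 2 in neither. Trav6-6 had 91 reads and its identical copy Trav6d-6 had 3, and Trav6d-7 had 66 reads while Trav6n-7 had none. Every Trbv, Trdv and gamma segment has stretches of its own: the closest Trbv pair, Trbv13-2 and Trbv13-3, is 90.6% identical, so values for single Trav copies are less certain than those for Trbv.

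A set of 4 libraries stood apart, and results are given with and without them. Mean log2(FPKM + 1) over 9 T cell genes such as Cd3e and Lck was 4.42 in Control 16, 4.49 to 5.03 in the AIA libraries, and 4.89 and 4.90 in Acu 6 and 28. It was 0.53 in Control 15 and 0.57 and 0.62 in the libraries labelled Control 17 and Acu 4, in each of which only 2 of the 9 genes exceeded 1 FPKM. Genes of 5 decidual markers averaged 8.57 and 7.74 in the libraries labelled Control 17 and Acu 4 and at most 2.63 elsewhere, and the mean of 5 trophoblast markers reached 2.55 and 8.28 there against at most 0.24. Adipocyte genes averaged 9.83 in Control 15, 7.73 in Control 16 and at most 3.60 elsewhere. Muscle genes averaged 10.6 in Control 16, the highest of the series, 8.69 in Control 15, 8.68 in Acu 28, 7.82 in AIA 31, 7.17 in Acu 6 and 1.25 to 5.52 in the others. AIA 10 had 15116 genes above 0 against 21224 to 24411 in the others, although total reads varied little, from 13269763 to 18926894. The part of these features in the results below was not tested.

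V segment reads were scarce in every library, and libraries of the same group differed widely. The Control libraries 15, 16 and 17 held 20, 233 and 77 V reads. AIA 5, 10, 31 and 38 held 718, 36, 1292 and 1495, and Acu 4, 6 and 28 held 69, 1954 and 1449. A total of 3 AIA and 2 Acu libraries lay above all 3 Control libraries, while AIA 10 and the library labelled Acu 4 lay within the Control range.

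Scaled to reads per 1e+06, the V level was 1.06, 15.9 and 4.11 in Control, 49.9, 2.71, 80.0 and 88.9 in AIA, and 3.76, 119 and 88.6 in Acu. On the log2(V reads per 1e+06 reads + 1) scale the group means were 2.49 ± 1.53 in Control (SD, n = 3), 5.098 ± 2.17 in AIA (n = 4) and 5.22 ± 2.58 in Acu (n = 3). AIA exceeded Control by 2.61 (two-sided exact permutation p = 0.171, where the smallest possible is 0.0571), a difference that became -1.05 when libraries were scaled by their T cell genes. That scaling rests on few T cell reads in Control 15 and 17, with 46 and 39 reads of Cd3d, Cd3e and Cd3g. Per 100 such reads, V reads numbered 43.5, 7.14 and 197 in Control 15, 16 and 17. They numbered 12.0, 0.596, 20.6 and 29.7 in AIA 5, 10, 31 and 38. On the log2 scale, Acu exceeded AIA by 0.12 (exact permutation p = 0.686). This difference turned to -0.95 without AIA 10, -0.73 without Acu 6 and -0.52 without Acu 28. The SD between libraries of a group was thus somewhat below the difference of AIA and Control and far above that of Acu and AIA.

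**Figure D1:**
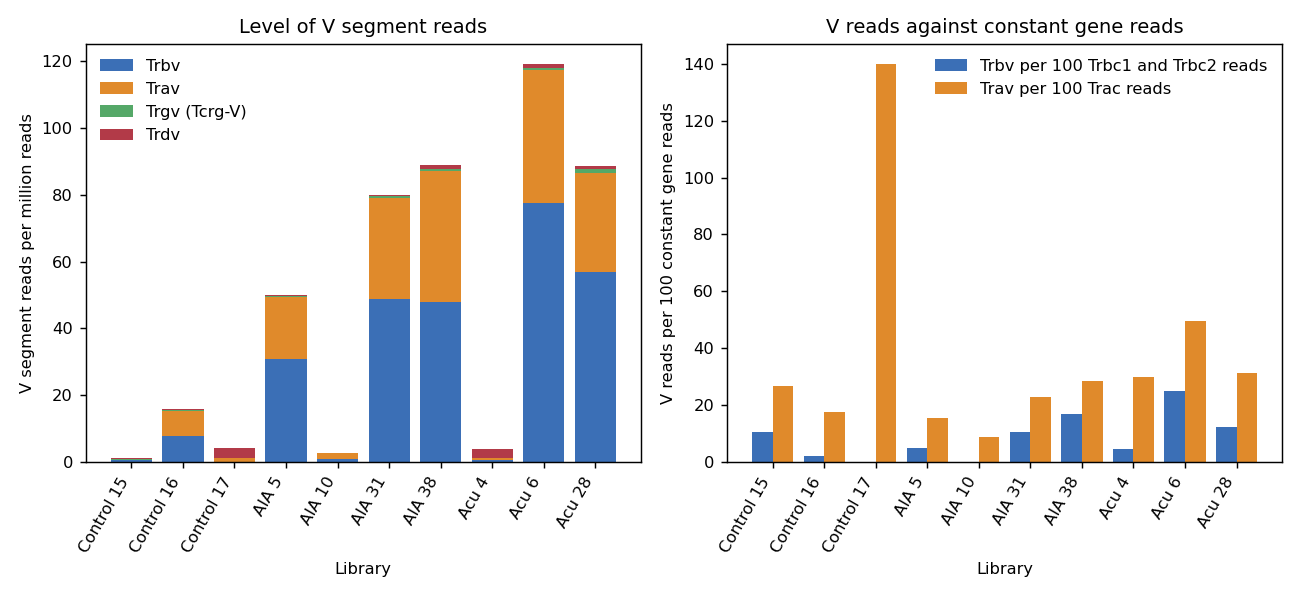
Left, V segment reads per 1e+06 reads of each library, stacked by locus. Right, Trbv reads per 100 reads of Trbc1 and Trbc2, and Trav reads per 100 reads of Trac. AIA 10 has 2.71 V reads on that scale, near the libraries labelled Control 17 (4.11) and Acu 4 (3.76), and the tall bar of 140 rests on 21 Trav and 15 Trac reads.

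The V segments did not follow their constant genes evenly. Trbc1 and Trbc2, the beta constant genes, had 5262 reads in Control 16, 8937, 7406 and 4815 in AIA 5, 31 and 38, and 5123 and 7653 in Acu 6 and 28. Per 100 of these reads, Trbv reads numbered 2.15 in Control 16, 4.97, 10.7 and 16.7 in AIA 5, 31 and 38, and 24.8 and 12.1 in Acu 6 and 28. Control 16 was the lowest of these 6 libraries, and the AIA and Acu values overlapped.

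Trac, the alpha constant gene, had 637 reads in Control 16, 1726, 2149 and 2312 in AIA 5, 31 and 38, and 1321 and 1550 in Acu 6 and 28. Per 100 of these, Trav reads numbered 17.4, then 15.4, 22.7 and 28.5, then 49.4 and 31.4. Here both Acu libraries lay above the 3 AIA libraries, and Control 16 lay inside the AIA range.

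AIA 10 was the extreme case. Its 12407 beta constant reads were the most of any library, and its 6044 reads of Cd3d, Cd3e and Cd3g, which carry the receptor's signal, were within the range of AIA 5, 31 and 38 (5028 to 6269). Only 2 of the 142 members had any read there, Trav6n-6 with 24 and Trbv12-2 with 12, or 0.0967 Trbv reads per 100 beta constant reads. No read fell on the other 21 Trbv segments, including Trbv13-2, the one with the highest mean usage. AIA 10 was therefore left out of all values on usage.

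No V segment passed the test between groups when all 10 libraries were fitted. In AIA against Control, limma with Benjamini-Hochberg adjustment called 0 of 66 members, beside 4 of 17010 genes (0.0235%). At an unadjusted p under 0.05 there were 10 members beside 4246 genes (25%), and voom, limma's form for reads, called 0 members. Since Control 15 and 17 hold few V reads, members passed the filter mainly through AIA and Acu libraries, so the direction of their differences from Control is not counted. Without Acu 4 the fit called 1708 genes and without Control 17 it called 956, but 0 members in either case. Without AIA 10 it called 8 genes, without Acu 6 it called 2, and without any 1 of Control 15 or 16, AIA 5, 31 or 38, or Acu 28 it called 0.

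Trbv20 showed the largest fitted difference. Its level was 0, 0.966 and 0 FPKM in Control, 8.34, 0, 16.6 and 17.6 FPKM in AIA 5, 10, 31 and 38, and 0.375, 12.4 and 8.18 FPKM in Acu 4, 6 and 28. Every AIA library but AIA 10 lay above the Control libraries, and AIA 10 had no read. The difference AIA minus Control was 2.57 on the log2(FPKM + 1) scale (SE 1.07, limma adjusted p = 0.178), a scale that understates the change of low genes.

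The next largest differences of AIA over Control were those of Trbv13-1 (2.41), Trbv1 (2.04), Trbv19 (1.99) and Trbv17 (1.99), with limma adjusted p between 0.195 and 0.254. Trbv17 read 0, 1.38 and 0 FPKM in Control, 8.93, 0, 7.83 and 7.86 FPKM in AIA 5, 10, 31 and 38, and 0, 4.48 and 3.20 FPKM in Acu 4, 6 and 28. Its 3 AIA libraries with reads were the highest of the series, both T cell rich Acu libraries came next, and AIA 10 overlapped Control. Only 1 member, Trbv12-2, was higher in all 4 AIA than in all 3 Control libraries, and only Trdv4 was lower in all. Beside this, 25.3% of genes did not overlap in either direction. AIA 10 had reads on Trbv12-2 and Trav6n-6 alone, so no other member could be higher in all 4 AIA libraries. Trbv12-2 stood at 0, 2.02 and 0 FPKM in Control and at 5.84, 2.75, 3.66 and 2.29 FPKM in AIA 5, 10, 31 and 38, so AIA 38 and Control 16 nearly met.

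Acupuncture against untreated arthritis gave 0 of 66 members and 0 of 17010 genes (0%) by limma, and voom called 0 members too. At an unadjusted p under 0.05 there were 0 members and 799 genes (4.7%). The fitted differences Acu minus AIA were spread around 0, with 30 members above, 36 below and a median of -0.03 (0.08 over all genes tested). This tally turned with single libraries: without Acu 4 it was 53 above and 12 below (median 0.42), without AIA 10 it was 13 and 53 (median -0.34), without Acu 6 it was 7 and 48 (median -0.41), and without Acu 28 it was 10 and 47 (median -0.27). The most negative were Trav6-1 (-0.92, SE 0.41), Trbv17 (-0.89), Trav16d-dv11 (-0.82), Trav14n-3 (-0.79) and Trav14d-3-dv8 (-0.60). The most positive were Trdv4 (0.97, SE 0.75), Trav3-1 (0.63), Trav14n-2 (0.50), Trav13-1 (0.48) and Trbv13-2 (0.42), all 10 with limma adjusted p between 0.746 and 0.923. The Acu and AIA libraries overlapped for all 66 members, while 11.1% of genes did not overlap. AIA 10 had reads on 2 members and the library labelled Acu 4 on 9. Overlap was therefore nearly fixed in advance for the members, and it cannot be set against the share of genes.

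Acu against Control likewise gave 0 of 66 members and 0 of 17010 genes (0%) by limma and 0 members by voom. At an unadjusted p under 0.05 there were 2 members, Trav3-1 and Trav9n-2, and 1275 genes (7.5%). Trbv13-1 (2.54), Trbv1 (2.33), Trbv13-3 (2.19), Trbv20 (2.14) and Trbv13-2 (2.10) had the highest differences, with limma adjusted p between 0.681 and 0.746. Trdv4 (-0.42) and Trav14n-3 (-0.08) had the lowest. Without Control 17 the fit called 299 genes and without Acu 4 it called 85, with 0 members in both. Acu and Control libraries overlapped for all 66 members, while 9.15% of genes did not overlap. Here too overlap was nearly fixed in advance, since the libraries labelled Acu 4, Control 15 and Control 17 had reads on 9, 9 and 11 members. The 3 comparisons share libraries pairwise, so their values are not independent.

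Leaving out AIA 10 and the libraries labelled Control 17 and Acu 4 changed this picture, a choice made after their values were known. In AIA against Control, 29 of 65 members were then called, beside 3386 of 15838 genes (21.4%). These 29 were all higher in AIA, beside 1606 genes called higher (10.1%). Members passed the filter mainly through AIA and Acu libraries, so a call lower than Control was hardly possible. Their direction is therefore not counted. The 29 were 12 Trbv and 17 Trav segments, and they covered most of the common ones. Trbv20 rose by 3.39 (SE 0.43, limma adjusted p = 0.00502), Trbv13-1 by 3.18 (SE 0.30, limma adjusted p = 0.00398), Trbv1 by 2.69 and Trbv19 by 2.62. Trbv17 rose by 2.60, Trbv14 by 2.36, Trbv13-3 by 2.35, Trbv29 by 2.24, Trbv2 by 2.13 and Trbv13-2 by 2.08, while Trbv31 rose by 1.86 and Trbv12-1 by 1.12.

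Among alpha segments in the same fit, Trav14d-3-dv8 rose by 2.38, Trav7-4 by 2.06, Trav6-1 by 1.68, Trav7-1 by 1.68, Trav7d-4 by 1.63 and Trav16d-dv11 by 1.44. Smaller rises were seen for Trav14-1, Trav7d-3, Trav3-3, Trav6-2, Trav3-4, Trav6-6, Trav6d-4, Trav8d-2, Trav12-3, Trav8n-2 and Trav15-1-dv6-1, from 1.29 down to 0.73. With the same limit on direction, Acu against Control called 25 of 65 members, all higher, beside 2073 genes (13.1%), 886 higher (5.59%). The largest were Trbv13-1 (3.82), Trbv1 (3.50), Trbv13-3 (3.28), Trbv20 (2.99) and Trbv13-2 (2.96), and Trbv3, Trav3-1, Trav8d-1 and Trav9n-2 passed here but not in AIA against Control, a contrast that was not itself tested. In Acu against AIA 0 of 65 members and 0 genes passed (0%), with 625 genes at an unadjusted p under 0.05. The comparisons with Control in this fit include Control 15, whose 20 V reads go with a T cell mean of 0.53.

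Control 16 was the only Control library rich in T cell RNA. With it alone as Control, and its spread assumed to be that of the other groups, limma still called 12 of 64 members higher in AIA and 0 lower, beside 11.9% of genes called and 4.56% called higher. These 12 were Trbv13-1 (3.06), Trbv20 (2.90), Trbv1 (2.26), Trbv19 (2.18), Trbv14 (2.13), Trav14d-3-dv8 (2.12), Trbv17 (1.96), Trav7-1 (1.79), Trbv29 (1.76), Trav6-1 (1.68), Trbv2 (1.60) and Trav14-1 (1.18). In Acu against Control 16, 10 of 64 rose and 0 fell, beside 6.51% of genes called and 2.06% called higher, led by Trbv13-1 (3.71) and Trbv1 (3.08). With the same libraries scaled by their T cell genes, the median difference of the 64 members was 0.69 in AIA and 0.79 in Acu against Control 16. The medians over all genes tested were -0.30 and -0.23. With AIA 10 kept and only Control 17 and Acu 4 left out, 0 members passed in AIA against Control, beside 2166 genes (13.5%), and 0 in Acu against Control, beside 713 genes (4.44%). The calls against Control 16 alone rest on 1 Control library and are a comparison with that library. The filter limits their direction in the same way, so it is not counted, and the same limit holds for the member medians.

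The receptor's other genes were taken from a list of 29, of which 23 were tested: constant genes, CD3 chains, coreceptors and the kinases next to them. With all 10 libraries 0 of 23 passed in any of the 3 comparisons by limma. All 23 lay above 0 in AIA minus Control (median 3.16), all below 0 in Acu minus AIA (median -1.37) and all above 0 in Acu minus Control (median 1.52). The order of Acu and AIA rests on 1 library: without Acu 4, 10 lay above and 13 below 0 (median -0.07), and without Control 17, Acu 4 and AIA 10, 7 lay above and 16 below (median -0.24). The median of Acu minus Control ranged from 0.67 without Control 15 to 2.94 without Acu 4 when single libraries were left out. With Control 16 alone as Control and AIA 10 and Acu 4 left out, 5 of 23 rose in AIA, beside 11.9% of all genes called and 4.56% called higher: Trat1, a membrane adaptor of the receptor complex (1.67), Trac (1.60), Cd8b1 (1.13), Cd4 (0.95) and Cd3e (0.89). The list's median there was 0.40, beside 0.06 for all genes tested.

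Usage, the percent of a locus' V reads that each segment takes, was examined in the 6 libraries with at least 100 reads in both the Trav and the Trbv locus: Control 16, AIA 5, 31 and 38, and Acu 6 and 28. Intervals given with usage are exact binomial 95% intervals and cover counting error only, since reads without molecular identifiers are not independent molecules. With 2 Acu against 3 AIA libraries an exact permutation test cannot give a p below 0.2. Differences in usage between these groups were therefore not called, and no model-based test of them was run. Control 16 has 113 Trbv and 111 Trav reads and no replicate.

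Levels between segments were compared per length, as the percent of a library's summed Trbv FPKM, with each of the 6 libraries weighted equally. Trbv13-2 led with a mean of 19.2% (13.1 to 30.2% over libraries), followed by Trbv13-1 (10.8%), Trbv20 (9.91%), Trbv1 (7.75%), Trbv13-3 (6.43%), Trbv19 (6.28%), Trbv17 (6.27%), Trbv2 (5.45%), Trbv12-2 (5.39%) and Trbv29 (5.17%). The ranges over libraries of all neighbours in this order overlapped, and the order itself differed between libraries: Trbv17 took 2.71 to 11.5%. The highest means per length among the Trav segments, as percent of summed Trav FPKM, were 5.69% for Trav14d-3-dv8, 4.83% for Trav7-4, 4.07% for Trav3-3 and 3.84% for Trav16d-dv11, again with overlapping ranges.

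**Figure D2:**
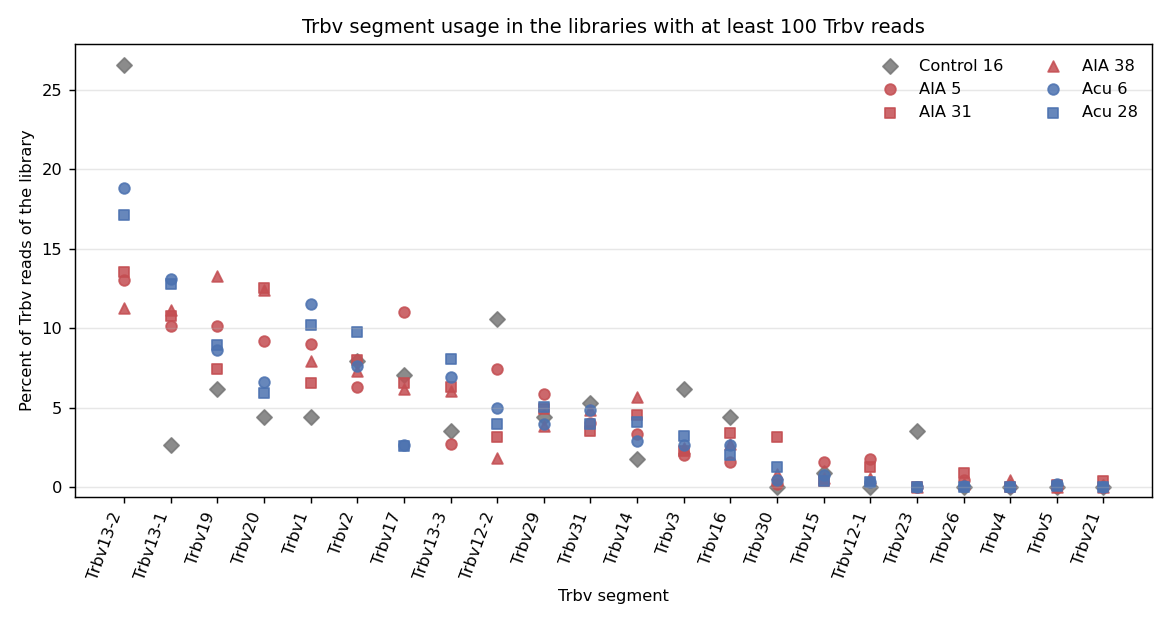
Percent of each library's Trbv reads taken by each Trbv segment, ordered by the mean over the 6 libraries with at least 100 Trbv reads; colour marks the group and shape the library. Trbv13-2 leads in every library shown but AIA 38, where Trbv19 leads. It takes 26.5% in Control 16 and 18.8% and 17.1% in Acu 6 and 28. Trbv17 and Trbv20 are lower in Acu 6 and 28 than in the 3 AIA libraries.

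The Trbv13 family held the largest share of beta reads and was higher in Acu than in AIA libraries. It took 32.7% in Control 16, 25.9%, 30.7% and 28.5% in AIA 5, 31 and 38, and 38.8% and 37.998% in Acu 6 and 28. Both Acu values exceeded all 3 AIA values (exact permutation p = 0.2, the smallest possible), and this family alone was given a test. The Acu intervals ran from 36.2 to 41.6% and from 34.9 to 41.2%, above the highest AIA bound of 34.0%. These intervals cover counting error only. Among 18 Trbv families used in these libraries, 3 were higher in Acu without overlap and 3 lower, beside 25.6% of all genes by FPKM. All 3 family members, Trbv13-1, Trbv13-2 and Trbv13-3, were higher in both Acu libraries than in the 3 AIA libraries.

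Trbv13-2 alone took 26.5% in Control 16, 13.1%, 13.6% and 11.3% in AIA 5, 31 and 38, and 18.8% and 17.1% in Acu 6 and 28. Control 16 was highest, with an interval from 18.7 to 35.7% because of its few reads, and AIA lowest. Trbv1 took 4.42% in Control 16, 9.01%, 6.59% and 7.94% in AIA, and 11.5% and 10.2% in Acu. The Acu libraries were again above the AIA libraries, but the intervals of AIA 5 (6.51 to 12.1%) and Acu 28 (8.35 to 12.4%) meet.

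Trbv17 and Trbv20 showed the opposite order. Trbv17 took 7.08% in Control 16, 11.04%, 6.59% and 6.20% in AIA 5, 31 and 38, and 2.68% and 2.58% in Acu 6 and 28, a ratio of mean Acu to mean AIA of 0.331. Its Acu intervals, with an upper bound of at most 3.82%, did not meet any AIA interval, the lowest of which began at 4.64%. Trbv20 took 4.42% in Control 16, 9.23%, 12.5% and 12.4% in AIA, and 6.62% and 5.92% in Acu, with no overlap between AIA and Acu values. In all, 9 of the 21 Trbv segments used in these 5 libraries did not overlap between Acu and AIA, 5 higher and 4 lower in Acu. As background, 25.6% of all genes tested did not overlap between the same libraries by FPKM, and by that measure 24 of the 66 tested members did not, 15 higher and 9 lower.

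Trbv12-2, Trbv19 and Trbv17 were, with Trav5-1, the segments that varied most among the AIA libraries themselves. Trbv19 took 10.1%, 7.48% and 13.3% in AIA 5, 31 and 38, a range that held both Acu values (8.67% and 8.93%). Trbv12-2 took 10.6% in Control 16, 7.43%, 3.17% and 1.86% in AIA, and 4.97% and 3.98% in Acu. Trav5-1 took 2.70% of alpha reads in Control 16, 0.755%, 2.25% and 6.21% in AIA, and 1.69% and 2.05% in Acu. Trbv2 (6.31 to 9.80% over the 6 libraries), Trbv29 (3.85 to 5.86%) and Trbv31 (3.55 to 5.31%) were steadier. Trbv23 was found in Control 16 alone, with 4 reads.

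**Figure D3:**
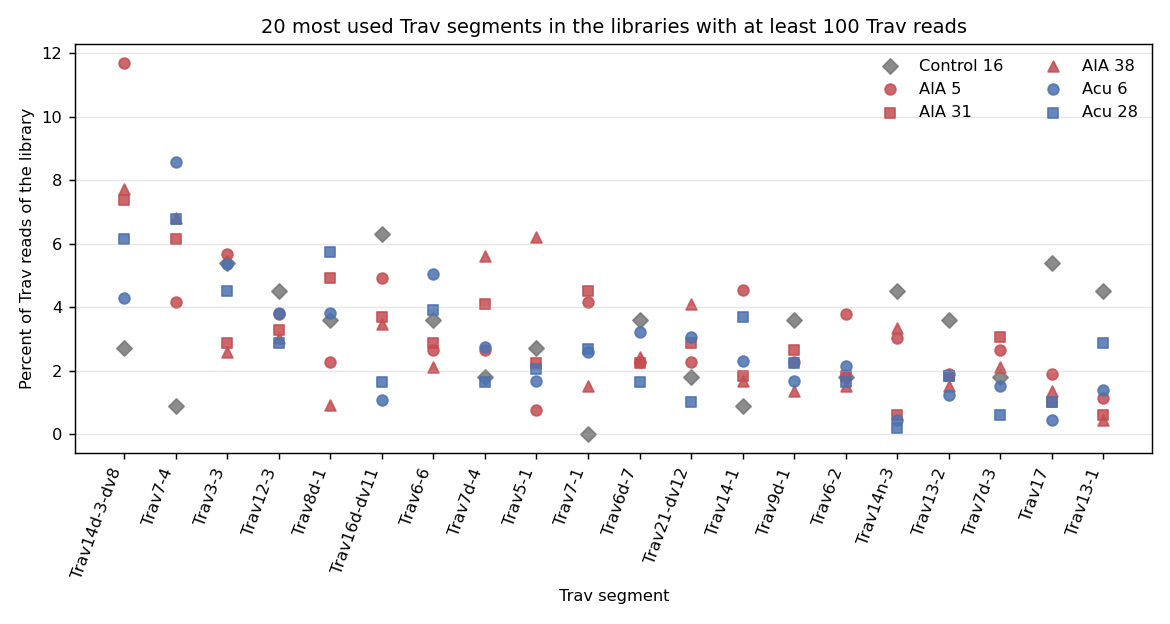
Percent of each library's Trav reads taken by the 20 Trav segments with the highest mean usage, in the 6 libraries with at least 100 Trav reads; colour marks the group and shape the library. Trav14d-3-dv8 and Trav16d-dv11 lie lower in Acu 6 and 28 than in AIA 5, 31 and 38.

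Alpha usage was spread over many segments, with the highest share of any single one in these 6 libraries at 11.7%. Trav14d-3-dv8, which serves both alpha and delta chains, took 2.70% of alpha reads in Control 16, 11.7%, 7.38% and 7.73% in AIA 5, 31 and 38, and 4.29% and 6.16% in Acu 6 and 28. Trav16d-dv11, of the same double use, took 6.31% in Control 16, 4.91%, 3.69% and 3.48% in AIA, and 1.07% and 1.64% in Acu. Trav6-1 had no read in Control 16 and took 4.53%, 3.07% and 1.52% in AIA and 0.61% and 0.41% in Acu. For these 3 segments both Acu values were below all AIA values.

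Trav6-6 went the other way, with 3.60% in Control 16, 2.64%, 2.87% and 2.12% in AIA, and 5.05% and 3.90% in Acu, as did Trav3-1, which had 0, 3 and 4 reads in AIA 5, 31 and 38 and 19 and 8 reads in Acu 6 and 28. In all, 21 of 85 Trav segments used in these 5 libraries did not overlap, 14 higher and 7 lower in Acu, a share near the 25.6% of all genes. Trav7-4, the second by mean usage, overlapped: it took 0.901% in Control 16, 4.15%, 6.15% and 6.82% in AIA, and 8.58% and 6.78% in Acu. Its close copy Trav7d-4 took 1.80%, then 2.64%, 4.10% and 5.61%, then 2.76% and 1.64%. Trav3-3, Trav12-3, Trav8d-1, Trav7-1, Trav6d-7 and Trav21-dv12 also overlapped between AIA and Acu, with usage between 0 and 5.75%.

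**Figure D4:**
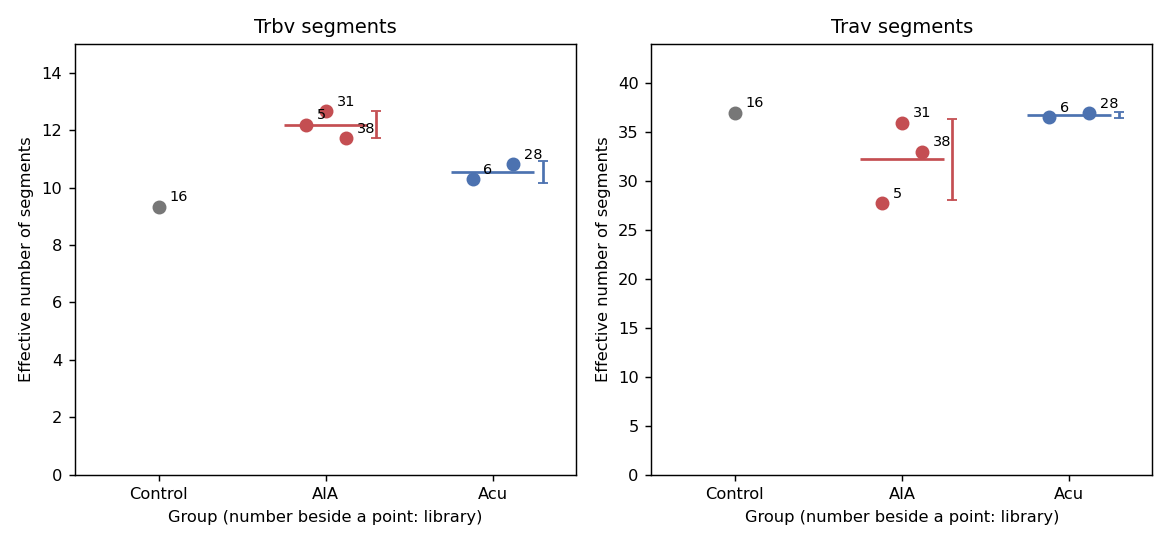
Effective number of Trbv (left) and Trav (right) segments in each library with at least 100 reads in the locus; lines mark group means and bars the SD between libraries. The Acu libraries (10.3 and 10.8) lie below the AIA libraries (11.7 to 12.7) for Trbv.

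Evenness was summarised by the effective number of segments, the inverse of the chance that 2 reads of a locus fall on the same segment, in a form that does not depend on depth. For Trbv it was 9.33 in Control 16, 12.2, 12.7 and 11.7 in AIA 5, 31 and 38 (12.2 ± 0.47, SD, n = 3), and 10.3 and 10.8 in Acu 6 and 28 (10.5 ± 0.37, n = 2). Acu minus AIA was -1.64 (exact permutation p = 0.2, the smallest possible), and both Acu libraries lay below the 3 AIA libraries, with Control 16 lowest. With every library of at least 10 reads in the locus, which brings in AIA 10 with its single segment, the difference turned to 1.15. The 5 most used Trbv segments held 58.4% of beta reads in Control 16, 53.6%, 52.3% and 56.1% in AIA, and 59.7% and 58.9% in Acu.

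For Trav the effective number was 37.0 in Control 16, 27.8, 35.9 and 33.0 in AIA 5, 31 and 38 (32.2 ± 4.14, SD, n = 3), and 36.5 and 36.9 in Acu 6 and 28 (36.7 ± 0.28, n = 2). Acu minus AIA was 4.49 (exact permutation p = 0.2, the smallest possible), the reverse of the Trbv order. AIA 5 was lowest, and without it the difference was 2.26. AIA minus Control 16 was -4.77 and turned to 8.86 as the exponential of Shannon entropy and to 4.16 from FPKM shares. Unlike the effective number, these 2 forms are not corrected for depth. Control 16 had 111 Trav reads, against 265, 488 and 660 in AIA 5, 31 and 38. The part of depth in the change of sign was not tested. With 1 Control library and a sign that depends on the index, no order of AIA and Control 16 can be given for Trav.

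Profiles of whole loci were compared by the shared percent, the sum over segments of the smaller of both usages. For Trbv the Acu pair shared 92.9%, AIA pairs 82.4 to 89.1% and AIA with Acu 79.6 to 83.4%, while Control 16 shared 64.2 to 72.2% with the others. For Trav the Acu pair shared 74.9%, AIA pairs 65.7 to 74.7%, AIA with Acu 61.2 to 73.1%, and Control 16 with the others 47.1 to 54.0%. Control 16 has the fewest reads of the 6, and the part of depth in its lower values was not tested.

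BALB/c mice carry endogenous mammary tumour viruses whose superantigens delete T cells that use certain beta segments, and Trbv26, Trbv12-1, Trbv12-2, Trbv16 and Trbv15 were listed for that reason. Per length, the median member of the list took 0.822% of summed Trbv FPKM over the 6 libraries weighted equally, against 5.17% for the other 17 Trbv segments and 4.05% for all 22. Trbv12-2 alone of the list lay above that 5.17%, at 5.39%. Together the 5 segments took 15.9% of beta reads in Control 16 (95% interval 9.72 to 24.002%). Their summed share was 12.8%, 9.13% and 6.08% in AIA 5, 31 and 38 (9.35 ± 3.38%, SD, n = 3). In Acu 6 and 28 it was 8.83% and 6.78%. The AIA and Acu values overlapped, and Control 16 was highest, with an interval that meets those of AIA 5, AIA 31 and Acu 6. Trbv26 had 0 to 7 reads per library, Trbv15 0 to 10 and Trbv12-1 0 to 10, while Trbv12-2 and Trbv16 held most of the list's reads.

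Gamma and delta segments were rare in the T cell rich libraries. They took 3.86% of V reads in Control 16, 1.25%, 1.161% and 1.94% in AIA 5, 31 and 38 (1.45 ± 0.43%, SD, n = 3), and 1.64% and 2.28% in Acu 6 and 28. Counts per segment were at most 13 there, with Trdv2-2 at 1 read in Control 16, 2, 3 and 13 in AIA and 7 and 6 in Acu. Trdv1 had 0 to 9 reads, Tcrg-V1 0 to 8, Trgv2 0 to 5, Tcrg-V4 0 to 11, and Trdv2-1 and Trdv5 at most 3. Tcrg-V3, Tcrg-V5 and Tcrg-V7 had no read in any library.

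**Figure D5:**
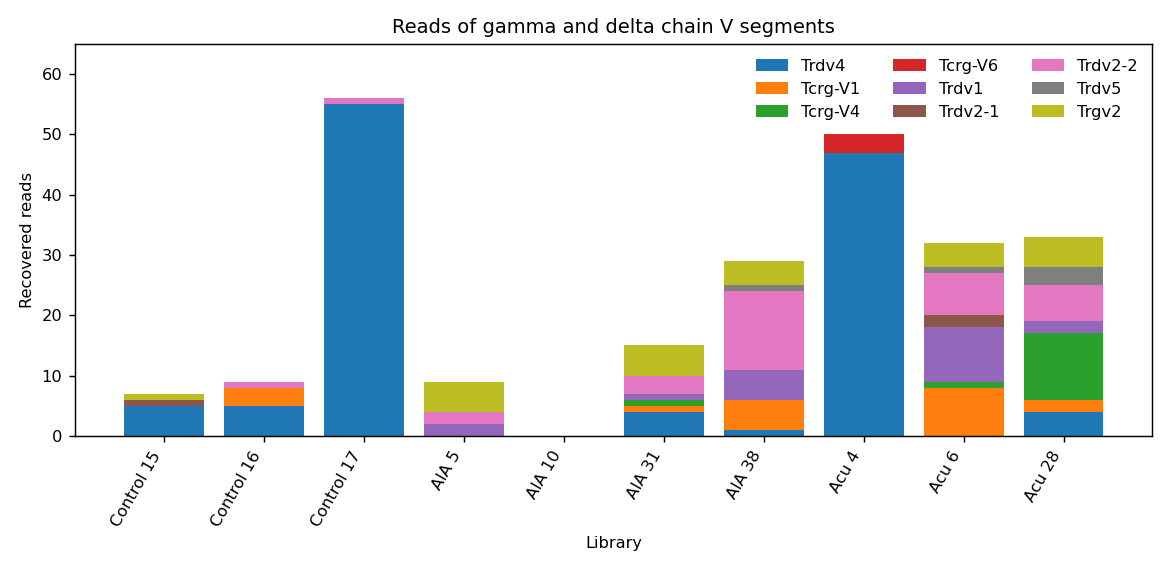
Recovered reads of the gamma and delta chain V segments in each library, stacked by segment. Trdv4 has 55 and 47 reads in the libraries labelled Control 17 and Acu 4 and at most 5 in every other library.

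In the libraries labelled Control 17 and Acu 4 the balance of V reads was inverted. Gamma and delta segments took 72.7% (95% interval 61.4 to 82.3%) and 72.5% (60.4 to 82.5%) of the 77 and 69 V reads. The constant genes were not inverted, but the margin differed between chains. Trbc1 and Trbc2 had 233 and 181 reads against 11 and 20 of Trdc, while Trac had only 15 and 37. In Control 16, AIA 5, 31 and 38, and Acu 6 and 28, Trac had 637 to 2312 reads and Trdc 89 to 211. Trdv4 is the delta segment of early-born gamma delta T cells that settle in skin, where it pairs with Tcrg-V5, and in the uterus, where it pairs with Tcrg-V6. It had 5, 5 and 55 reads in Control 15, 16 and 17, 0, 0, 4 and 1 in AIA 5, 10, 31 and 38, and 47, 0 and 4 in Acu 4, 6 and 28. These came to 8.07 FPKM and 6.65 FPKM in the libraries labelled Control 17 and Acu 4, against at most 0.73 FPKM elsewhere.

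AIA minus Control was -1.38 for Trdv4 on the log2(FPKM + 1) scale, without passing the test (limma adjusted p = 0.274). Without Control 17 it was -0.57, and without any other single library it ranged from -1.80 to -1.30. Tcrg-V6 had 3 reads, all in the library labelled Acu 4, and Trbv segments had 0 and 8 reads in the libraries labelled Control 17 and Acu 4. Trav4-4-dv10, which serves both chains, was the most read alpha segment of both libraries, with 6 and 8 reads. Reads of Trdc, the delta constant gene, numbered 11 and 20 there, fewer than those of Trdv4. The decidual marker values of these libraries, given above, move with the Trdv4 reads, and their part in them was not tested.

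Segments of invariant T cells were close to undetectable. Trav11 and Trav11d, whose aligned sequences are identical and which build the receptor of natural killer T cells, had 0 and 3 reads in all, the latter in Acu 28. Trav1, the segment of mucosal-associated invariant T cells, had 2 reads in Control 16 and 1 each in Acu 6 and 28. At this depth no difference between groups could be detected for these segments.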

How the data were processed

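RNA of 10 mouse popliteal lymph node libraries (3 Control, 4 AIA, 3 Acu) was extracted with Trizol and made into libraries with the NEBNext Ultra kit, per the labels' protocols. The genome build mm10, featureCounts 1.5.0-p3, HISAT2 2.0.5, DESeq2 1.16.1 and StringTie 1.3.3b are named without role per the submitters' processing notes. The sources used here do not give the handling of strand or of reads with several matches. The authors deposited FPKM with gene length and biotype. Within each library FPKM times length came in whole steps for 100% of values above 0 (tolerance 0.01), and these recovered reads were used for shares and effective numbers. Each library had 13269763 to 18926894 reads.

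log2(FPKM + 1) was fitted with limma 3.58.1 in R 4.3.3 (trend, all 10 libraries) on the 17010 genes with at least 0.5 FPKM in at least 3 libraries, adjusted by Benjamini and Hochberg with a threshold of 0.05. A median-ratio scaling factor of 0.996 was the same in every library. By that measure the deposited FPKM were already on a common scale, and this scaling did not shift libraries against each other. The fit and the effective number were tested on simulated data. Exact permutation tests used scipy 1.17.1 in Python 3.11.15. Usage needed at least 100 reads in a locus. Sequences, and matches of 50-base windows, came from GENCODE M21 transcripts, to which all 142 members matched.

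The members and lists were chosen with earlier results of these data known. Named segments are the 10 Trbv and 12 Trav with the highest usage, every gamma and delta segment with a read, the superantigen and invariant T cell segments, all members called in a described fit, the 5 largest rises and falls per comparison, the constant and CD3 genes, and the 4 most variable among AIA libraries. The alternatives tried were other pseudocounts, filters, scalings, tests and indices, and leaving libraries out. The T cell list holds 9 of 10 genes, since Bcl11b was not analysed here.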

Additional observations from a re-analysis of the deposited data

Results flagged for a closer look

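In the AIA group (4 libraries) 6 values had a library far from the other 3. The rule flags about 1 in 20 groups by chance. The number of values screened is not given here, so the 6 cannot be set against that rate. Of the 6, 5 belong to AIA 10. Its Trbv17 level was 0 FPKM, against 7.83 to 8.93 in the others. Its Trav6n-6 level was 5.80 FPKM, against at most 0.48. Trac stood at 25.9 FPKM there, against 126 to 145, and Cd3d at 155 FPKM. The ratio of Trbc1 to Trbc2 reads was 1.64 in AIA 10, against 0.581 to 0.685 in AIA 5, 31 and 38. The sixth is Tcrg-V4 at 0.132 FPKM in AIA 31, a single read, with 0 in the other AIA libraries.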

How the results depend on the processing

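Effective-number differences were taken with each library left out in turn. For Trbv, AIA minus Control ranged from 2.62 to 3.09 and Acu minus AIA from -1.90 to -1.38. For Trav, these ranged from -6.62 to -2.53 and from 2.26 to 6.35. Since the values of the groups compared did not overlap, leaving out a library could not turn a direction. The V level ranged from 1.88 to 3.67 (AIA minus Control) and from -0.95 to 1.60 (Acu minus AIA). Genes called ranged from 0 to 1708, 0 to 1 and 0 to 299 in AIA minus Control, Acu minus AIA and Acu minus Control, with 0 members called throughout. Superantigen shares ranged from 7.60 to 10.98% in AIA and 6.78 to 8.83% in Acu, and gamma delta shares from 1.21 to 1.60% and 1.64 to 2.28%. Leaving out Control 16 gave no effective number for Control.

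With at least 10 reads, the Trbv difference Acu minus AIA was 1.15 and the Trav difference AIA minus Control 1.73. The latter was 8.86 by Shannon entropy and 4.16 from FPKM shares, 2 forms not corrected for depth. T cell scaling turned the V level AIA minus Control to -1.05 and Trbv13-2 to -0.36, and summed FPKM turned the V level Acu minus AIA to -0.077.

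Genes called in AIA minus Control, 4 in the fit as reported, were 0 with a pseudocount of 0.1, by T cell scaling or by voom, 1 without a filter, 57 with at least 1 FPKM in 4 libraries, and 784 with the 2 groups alone. They were 2166 without Control 17 and Acu 4, 486 also without Control 15, 3386 without Control 17, Acu 4 and AIA 10, 1832 without all 4, and 2756 with T cell scaling besides. Members called in the last 3 settings were 29, 12 and 12. Without a filter 2 genes passed in Acu minus AIA and 1 in Acu minus Control. In Acu minus Control the counts were 713 without Control 17 and Acu 4, then 2073, 1005 and 1788 genes and 25, 10 and 13 members in those last 3 settings, which were chosen after seeing the data. The cause of these changes was not tested.

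No paired analysis was possible because the groups share no replicate number. The main limit is depth: 4 libraries hold 20 to 77 V reads. The mice are BALB/c, and what differences from the reference genome do to mapping was not tested.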

Other observations

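J segment genes, which lie between V and constant genes, were read 18, 69 and 84 times in Control 15, 16 and 17, 105, 0, 146 and 120 times in AIA 5, 10, 31 and 38, and 38, 550 and 303 times in Acu 4, 6 and 28. AIA 10 was thus at 0 for J segments as well, with 12407 beta constant reads. Acu 6 and 28 exceeded AIA 5, 31 and 38. Pseudogenes of V segments had 0 to 13 reads per library. The unnamed V gene B230359F08Rik on chromosome 14 had 6 reads in Control 15, 2 in AIA 31, 5 in Acu 6 and 7 in Acu 28.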
